A study of Mus musculus with 6 samples.

Results

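The autophagy and pexophagy genes described here are 36 genes chosen by symbol, out of 25664 genes in the count table, for their place in macroautophagy: 15 that start the autophagosome, 15 of the conjugation systems, 5 cargo receptors and the deubiquitinase Usp30. All 36 had a row, and all 36 passed the filter on low counts that left 11011 genes for testing. The libraries are RNA sequencing of alveolar macrophages, the resident phagocytes of the airspaces, sorted from lavage fluid of mice. There were 3 libraries from Vav1cre/+ Pex5fl/fl mice, titled VavCre, and 3 from Pex5fl/fl mice, titled WT. Both groups thus carry the floxed Pex5 allele, and only the first carries the Cre recombinase. Vav1-Cre acts in blood-forming cells and all their progeny, so other blood lineages of these mice are recombined too, and no group with Cre and an unfloxed allele was used here. The sources used here give neither age, sex nor any treatment. They also leave unsaid whether each library is a different mouse, so the p-values speak of the spread among these 6 samples only.

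Autophagy encloses cytoplasm in a double membrane and delivers it to the lysosome. A kinase complex around ULK1 starts the process, a lipid kinase complex around Beclin 1 marks the membrane, and ubiquitin-like conjugation attaches ATG8 proteins (the LC3 and GABARAP families) to it. Cargo receptors hold ubiquitinated material on one side and ATG8 proteins on the other. Pexophagy is the same route applied to peroxisomes, with NBR1 and p62 as receptors and ubiquitin on the peroxisomal membrane as the mark. PEX5, the import receptor for most peroxisomal matrix enzymes, is itself one of the proteins ubiquitinated there.

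Total counts ran from 13325609 to 19413838 in VavCre libraries and from 14226108 to 18987200 in WT libraries. The 36 genes together held 0.332% to 0.410% of the counts in VavCre and 0.343% to 0.383% in WT, and the lowest count of any of them in any library was 54. VavCre replicate 2 stood apart: the 50 most abundant genes took 30.4% of its counts, against 41.3% and 41.8% in the other VavCre libraries and 38.3% to 42.1% in WT. Library totals were multiplied by a TMM scaling factor, which was 1.34 for VavCre replicate 2 and 0.899 to 1.03 for the others. Levels of single genes below are on these scaled totals, and whether groups overlap was judged on them. Mitochondrially encoded genes took 0.592% to 1.42% of counts in VavCre and 1.21% to 2.48% in WT. All 12 markers of alveolar macrophages passed the count filter, and 4 of them (Siglecf, Ear1, Krt79 and Fabp1) were called lower in VavCre by edgeR. Summed levels of the 12 were 43422 to 68567 CPM (counts scaled to a common library total) in VavCre and 52049 to 71796 CPM in WT. Most of that sum was Chil3, which was not called (48108 ± 19516 CPM in VavCre and 43069 ± 9852 CPM in WT), so the sum says little of the others. Neutrophil markers summed to 133 to 180.4 CPM in VavCre and 77.7 to 102 CPM in WT. Of the 11, 4 were tested, and S100a8 and Cxcr2 were called higher. Mmp8, the largest part of the sum in VavCre, was not called (69.3 ± 34.8 CPM in VavCre and 36.9 ± 1.72 CPM in WT). Csf3r went the other way, also uncalled (28.1 ± 9.44 CPM in VavCre and 40.5 ± 7.84 CPM in WT). Another 6 of the 11, among them Ly6g, S100a9 and Retnlg, had no count in any library. Monocyte and interstitial macrophage markers summed to 7.62 to 11.9 CPM in VavCre and 4.74 to 8.09 CPM in WT. Lymphocyte markers, dendritic cell markers, and eosinophil and mast cell markers had sums of at most 1.29, 1.07 and 0.15 CPM in VavCre and 1.55, 0.79 and 0.0703 CPM in WT. Markers of lung epithelium and erythrocytes summed to 67.1 to 78.8 CPM in VavCre and 40.9 to 54.8 CPM in WT, mostly from Cdh1, which alveolar macrophages are known to express. Pex5 itself had 31.4, 36.3 and 29.6 CPM in VavCre replicates 1 to 3, against 33.0, 32.1 and 29.7 CPM in WT replicates 1 to 3. Reads from exons outside the loxP sites stay in such a total, and the removed exons are not named in the labels, so the level of Pex5 is no check on genotype.

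The question put to these genes was whether macrophages of Vav1cre/+ Pex5fl/fl mice hold more or less transcript of the autophagy machinery. None of the 36 genes was called, which here means an adjusted p under 0.05. By the quasi-likelihood test of edgeR, adjusted over the whole table after Benjamini and Hochberg, 0 were higher and 0 were lower, where 3.25% of all tested genes were called (1.74% higher and 1.51% lower). Without adjustment, 7 of 36 had p under 0.05, or 19.4%, against 18.9% of all genes. Of these, 4 were higher (9.70% of all genes were) and 3 lower (9.17% of all genes). At an adjusted p under 0.10 there were 4 of 36, or 11.1%, against 6.77% of all genes. On the scaled totals the VavCre and WT libraries did not overlap for 9 of 36, or 25.0%, against 26.1% of all genes. DESeq2 called 1 of the 36, Optn, where it called 6.02% of the genes it tested, and limma-voom called 0, where it called 2.94%. Optn was also the 1 call with library size alone (3.82% of all genes called) and with no filter on low counts (3.19%), and 0 were called without VavCre replicate 2 (4.75%) or with a replicate block (0.754%). In bulk libraries of this kind a lower level can mean fewer cells with the transcript or less of it per cell, which cannot be told apart. The genes nearest to a call were Optn, Atg12, Atg4d and Atg4a, all higher in VavCre with adjusted p from 0.0872 to 0.0942, and Wipi1, lower, with 0.111.

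The intervals show how large a difference these libraries leave room for. The 95% interval of the log2 fold change (VavCre over WT) lay within 2-fold of no change for 33 of the 36 genes, or 91.7%, against 80.8% of all tested genes, and within 1.5-fold for 24, or 66.7%, against 47.7%. The 3 whose interval reached past 2-fold were Optn, Wipi1 and Ulk1. The median size of the log2 fold change was 0.16 for the 36 genes and 0.19 for all genes tested, and the median standard error was 0.13 for the 36 and 0.17 for all.

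**Figure D1:**
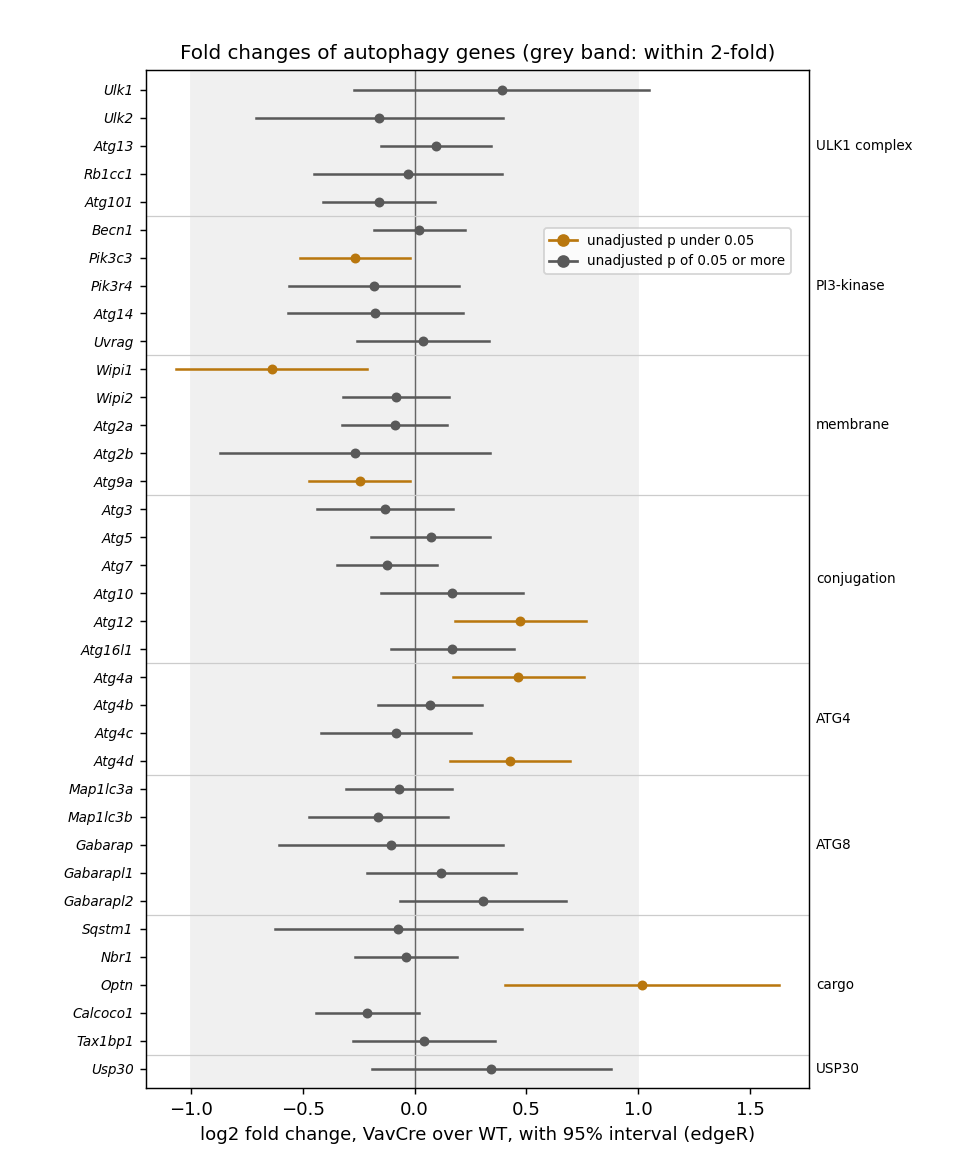
Log2 fold change (VavCre over WT, horizontal axis) of the 36 genes, grouped by role, with the 95% interval from edgeR as a line; the grey band marks changes within 2-fold. Most points lie close to 0, and Optn at 1.02 and Wipi1 at -0.64 lie farthest out.

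Among the 15 genes that start the autophagosome, 11 had a log2 fold change below 0 and 4 above, with a median of -0.16, against -0.00077 for all genes tested. With scaling by library size alone the median of all genes moved to 0.17 and that of these 15 to 0.083, which is -0.089 relative to all genes. The ULK1 kinase complex acts first. Atg101, which stabilises ATG13 and was the most abundant of the complex per length, had 41.8, 46.9 and 49.5 CPM in VavCre replicates 1 to 3, against 46.5, 52.7 and 55.1 CPM in WT replicates 1 to 3. The 2 sets overlapped, with a log2 fold change of -0.16 ± 0.11 (estimate ± SE from 3 and 3 libraries; edgeR adjusted p = 0.476). Atg13, the regulatory subunit, measured 26.8 ± 2.16 CPM in VavCre and 25.1 ± 1.51 CPM in WT (mean ± SD, n = 3 per group), and Rb1cc1, the FIP200 scaffold, 16.4 ± 1.57 CPM in VavCre and 16.8 ± 3.93 CPM in WT.

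The kinase genes themselves depended on 1 library. Ulk1, the kinase that receives the signals of nutrient and energy state, had 5.32, 10.9 and 5.43 CPM in VavCre replicates 1 to 3, against 5.48, 5.50 and 5.74 CPM in WT replicates 1 to 3. Only VavCre replicate 2 was high, and the log2 fold change of 0.39 became -0.039 without it. Ulk2, the second kinase of the family, had 9.23, 16.8 and 9.04 CPM in VavCre, against 14.5, 12.7 and 12.3 CPM in WT. Here too VavCre replicate 2 was the highest of the 6 libraries, while the other 2 VavCre libraries lay below every WT library. The log2 fold change of Ulk2 was -0.16 with all libraries and -0.51 without VavCre replicate 2 (adjusted p = 0.104 by edgeR). On the scaled totals, that library was the highest of the 6 for 7 of the 36 genes and the lowest for another 7.

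In the lipid kinase complex, Becn1, the Beclin 1 scaffold, was the most abundant per length. It had 93.6, 94.2 and 97.4 CPM in VavCre replicates 1 to 3, against 92.6, 93.0 and 95.3 CPM in WT replicates 1 to 3. All 6 libraries lay within a few CPM of each other, and the 95% interval of the log2 fold change was -0.18 to 0.23. In the annotation 43.9% of the exon bases of Becn1 lie opposite exons of Cntd1, so reads of the 2 genes may not be told apart. Pik3c3, the catalytic subunit VPS34, had 24.5, 28.5 and 24.1 CPM in VavCre, against 29.3, 32.1 and 31.5 CPM in WT. Every VavCre library was below every WT library on the scaled totals, though not on plain totals. The log2 fold change was -0.27 ± 0.11 (unadjusted p = 0.0366, adjusted p = 0.230 by edgeR). Pik3r4, the VPS15 pseudokinase, measured 14.2 ± 2.28 CPM in VavCre and 16.1 ± 2.27 CPM in WT. Atg14, which directs the complex to autophagosome formation, measured 12.4 ± 2.55 CPM in VavCre and 14.0 ± 0.93998 CPM in WT. Uvrag, which takes its place in the endosomal form, measured 33.3 ± 3.07 CPM in VavCre and 32.4 ± 4.58 CPM in WT.

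The genes that supply membrane and lipid all had point estimates below 0, 5 of 5, with a median of -0.25, although Wipi2 (0.090) and Atg2a (0.096) were above 0 with scaling by library size alone. Wipi1, a reader of the lipid that VPS34 makes, lies on chromosome 11 from 109573331 to 109611967 (GRCm38). It had 5.55, 5.63 and 5.09 CPM in VavCre replicates 1 to 3, against 9.86, 6.99 and 8.57 CPM in WT replicates 1 to 3. On the scaled totals the 3 VavCre libraries were alike and all lay below the lowest WT library. On plain totals the groups overlapped: VavCre replicate 2 had 134 counts of 17814958, and WT replicate 2 had 122 of 18987200. The log2 fold change was -0.64 ± 0.19, with a 95% interval of -1.06 to -0.21, and it did not pass (adjusted p = 0.111 by edgeR). Atg9a, the scramblase carried on vesicles, had 27.5, 31.1 and 28.1 CPM in VavCre, against 33.4, 33.2 and 36.3 CPM in WT. The groups did not overlap on the scaled totals but did on plain totals, at a log2 fold change of -0.25 ± 0.099 (adjusted p = 0.230 by edgeR). Atg9a is uncertain, since 39.7% of its 100-base words also occur in other genes, the closest being the overlapping predicted gene Gm29253. Wipi2, the paralog that recruits ATG16L1, measured 33.8 ± 1.72 CPM in VavCre and 35.9 ± 3.22 CPM in WT. The lipid transfer proteins Atg2a and Atg2b measured 36.5 ± 1.87 CPM in VavCre and 38.8 ± 3.35 CPM in WT, and 7.18 ± 2.53 CPM in VavCre and 8.67 ± 1.403 CPM in WT.

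Wipi1 had the largest difference below 0 of the 36, so the stretch before the start of its RefSeq transcript is shown, from RefSeq on GRCm38.p6, chr11:109611433-109611639, minus strand, 5′ to 3′, ending where the coding transcripts of GENCODE M21 begin. It lies inside the gene span given above, because a further noncoding transcript of Wipi1 in that annotation starts upstream of it. Capitals mark the GC box GGGCGG, the letters bound by SP-family factors, searched on both strands.
Wipi1: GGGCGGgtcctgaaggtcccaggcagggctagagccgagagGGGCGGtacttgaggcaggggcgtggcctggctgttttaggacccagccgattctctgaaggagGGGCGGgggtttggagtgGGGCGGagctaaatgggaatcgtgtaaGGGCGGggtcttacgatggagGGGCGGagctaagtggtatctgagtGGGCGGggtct
The stretch of 207 bases holds 7 GC boxes. Of 27025 genes, 35.4% have at least 1 promoter window (250 bases before a start) with a GC box, and 19 of the 30 members with a window do. The other 6 of the 36, Atg12, Atg16l1, Becn1, Map1lc3a, Pik3c3 and Rb1cc1, had no window and were not searched.

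Of the 15 genes of the conjugation systems 9 had a log2 fold change above 0 and 6 below, with a median of 0.071 (0.063 relative to all genes with scaling by library size alone), and 0 were called by edgeR. Atg12, the ubiquitin-like protein that is joined to ATG5, had 46.5, 43.5 and 57.5 CPM in VavCre replicates 1 to 3, against 36.9, 37.3 and 32.1 CPM in WT replicates 1 to 3. All VavCre libraries lay above all WT libraries, with VavCre replicate 3 the highest. The log2 fold change was 0.47 ± 0.13, with a 95% interval of 0.18 to 0.77 (adjusted p = 0.0918 by edgeR), and without VavCre replicate 2 it was 0.57 (adjusted p = 0.052). Its partner Atg5, with Atg3 the most abundant enzyme gene of the system per length, had 103, 84.8 and 107 CPM in VavCre, against 99.4, 91.8 and 89.3 CPM in WT. Those ranges overlapped (log2 fold change 0.071 ± 0.12). Atg16l1, which completes the complex and decides where ATG8 proteins are attached, measured 26.1 ± 1.90 CPM in VavCre and 23.2 ± 2.72 CPM in WT.

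None of the enzymes of the conjugation reactions passed. Atg7, the shared E1 enzyme that activates ATG12 and the ATG8 proteins, had 140.3, 129 and 134 CPM in VavCre, against 143, 150.3 and 146 CPM in WT. The groups did not overlap on the scaled totals but did on plain totals. The log2 fold change was only -0.12 ± 0.098 (adjusted p = 0.548 by edgeR), with a 95% interval of -0.35 to 0.10. Atg3, the E2 enzyme for ATG8 proteins, measured 122 ± 18.1 CPM in VavCre and 134 ± 10.1 CPM in WT. On the scaled totals VavCre replicate 2 was the lowest of the 6 libraries for Atg3, Atg5 and Atg7. On plain totals it was the highest for each of them, so that rank rests on its scaling factor of 1.34. Without that library the log2 fold change of Atg3 was -0.00050. Atg10, the E2 enzyme for ATG12, measured 13.2 ± 1.51 CPM in VavCre and 11.8 ± 0.396 CPM in WT.

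The E-box CACGTG is the core of the element through which TFEB and TFE3 act on lysosomal and autophagy genes. It was found on either strand in the 250 bases before the start of 3 of the 30 members with a window, Atg3, Atg5 and Atg7, and in 6.86% of 27025 genes. None of the 3 was called. Atg3 holds 2 of them, and is shown from chr16:45158579-45158784 (RefSeq on GRCm38.p6, plus strand, 5′ to 3′, up to the first annotated exon), with the 2 E-boxes CACGTG and 3 GC boxes (GGGCGG, or CCGCCC on the other strand) in capitals.
Atg3: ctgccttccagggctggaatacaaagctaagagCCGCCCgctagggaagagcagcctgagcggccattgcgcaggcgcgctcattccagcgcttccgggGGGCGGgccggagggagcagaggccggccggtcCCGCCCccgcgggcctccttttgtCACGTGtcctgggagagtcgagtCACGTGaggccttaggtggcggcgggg
The letters TGACNNNGC, the core of the antioxidant element bound by NRF2, were found before Atg13, Tax1bp1 and Ulk2, 3 of 30 members, and before 11.5% of all genes. The forkhead letters GTAAACA were found before 0 of the 30 and before 3.54% of all genes.

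ATG4 proteases cut ATG8 proteins to expose the end that is conjugated, and later free them from the membrane. Both Atg4d and Atg4a were separated between the groups, and neither was called. Atg4d had 29.8, 30.3 and 24.3 CPM in VavCre replicates 1 to 3, against 21.7, 20.4 and 20.7 CPM in WT replicates 1 to 3. Every VavCre library was above the WT libraries, which lay close together, and the log2 fold change was 0.43 ± 0.12 (adjusted p = 0.0938 by edgeR). The gene lies opposite Kri1 over 19.3% of its exon bases, and Kri1 measured 11.1 ± 1.48 CPM in VavCre and 8.73 ± 0.436 CPM in WT, so part of the difference may not be told apart from that gene. Atg4a, on the X chromosome, had 15.6, 16.3 and 18.8 CPM in VavCre, against 12.0, 12.8 and 11.9 CPM in WT. Again the groups did not overlap, at a log2 fold change of 0.46 ± 0.13 (adjusted p = 0.0942 by edgeR). Atg4a shares 44.2% of its 100-base words with other genes, the closest being the pseudogene Atg4a-ps, so the level of Atg4a is uncertain. Atg4a-ps had 0 counts in every VavCre library and 1, 1 and 2 counts in WT. Atg4c, the most abundant of the 4 per length, had 28.3, 30.9 and 32.9 CPM in VavCre, against 39.7, 31.1 and 26.9 CPM in WT, and Atg4b, the main protease of the family, measured 43.6 ± 2.35 CPM in VavCre and 41.6 ± 3.49 CPM in WT. Those 2 overlapped between groups.

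The ATG8 proteins coat the growing membrane, and Gabarap was the most abundant of their genes. It had 915, 519.6 and 851 CPM in VavCre replicates 1 to 3, against 837, 843 and 777 CPM in WT replicates 1 to 3. On the scaled totals VavCre replicate 2 was far below the other 5 libraries, which lay between 777 and 915 CPM. On plain totals it was again the lowest, but nearer to the rest. It had 12366 counts of 17814958, and WT replicate 1 had 10695 of 14226108. The log2 fold change was -0.11 ± 0.22, and without VavCre replicate 2 it was 0.12 (adjusted p = 0.565 by edgeR). Per kilobase of exon Gabarap made up 70.8%, 61.9% and 71.5% of the summed level of the 5 genes in VavCre and 70.6%, 71.2% and 68.4% in WT. Map1lc3b, the LC3B gene whose product is the usual marker of autophagosomes, had 384, 308 and 383 CPM in VavCre, against 390.5, 416 and 397 CPM in WT. All VavCre libraries lay below WT on the scaled totals, 2 of them by little, though not on plain totals. The log2 fold change was -0.16 ± 0.14 (adjusted p = 0.570 by edgeR), or -0.051 without VavCre replicate 2.

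The remaining ATG8 genes overlapped between the groups. Map1lc3a, the LC3A gene, measured 89.2 ± 1.33 CPM in VavCre and 93.6 ± 8.93 CPM in WT, and Gabarapl1 95.6 ± 19.5 CPM in VavCre and 87.9 ± 4.71 CPM in WT. Exons of Gabarapl1 lie opposite a predicted transcript, 1700101I11Rik, over 28.3% of their bases. Gabarapl2, the GATE-16 gene, had the smallest p of the 5, with 44.8, 30.9 and 38.5 CPM in VavCre, against 33.2, 33.6 and 25.3 CPM in WT. VavCre replicates 1 and 3 were above the WT libraries and VavCre replicate 2 was among them, at a log2 fold change of 0.31 ± 0.16 (adjusted p = 0.3504 by edgeR). Gabarapl2 shares 9.57% of its 100-base words with other genes, the closest being the predicted gene Gm3724, and is uncertain in part.

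**Figure D2:**
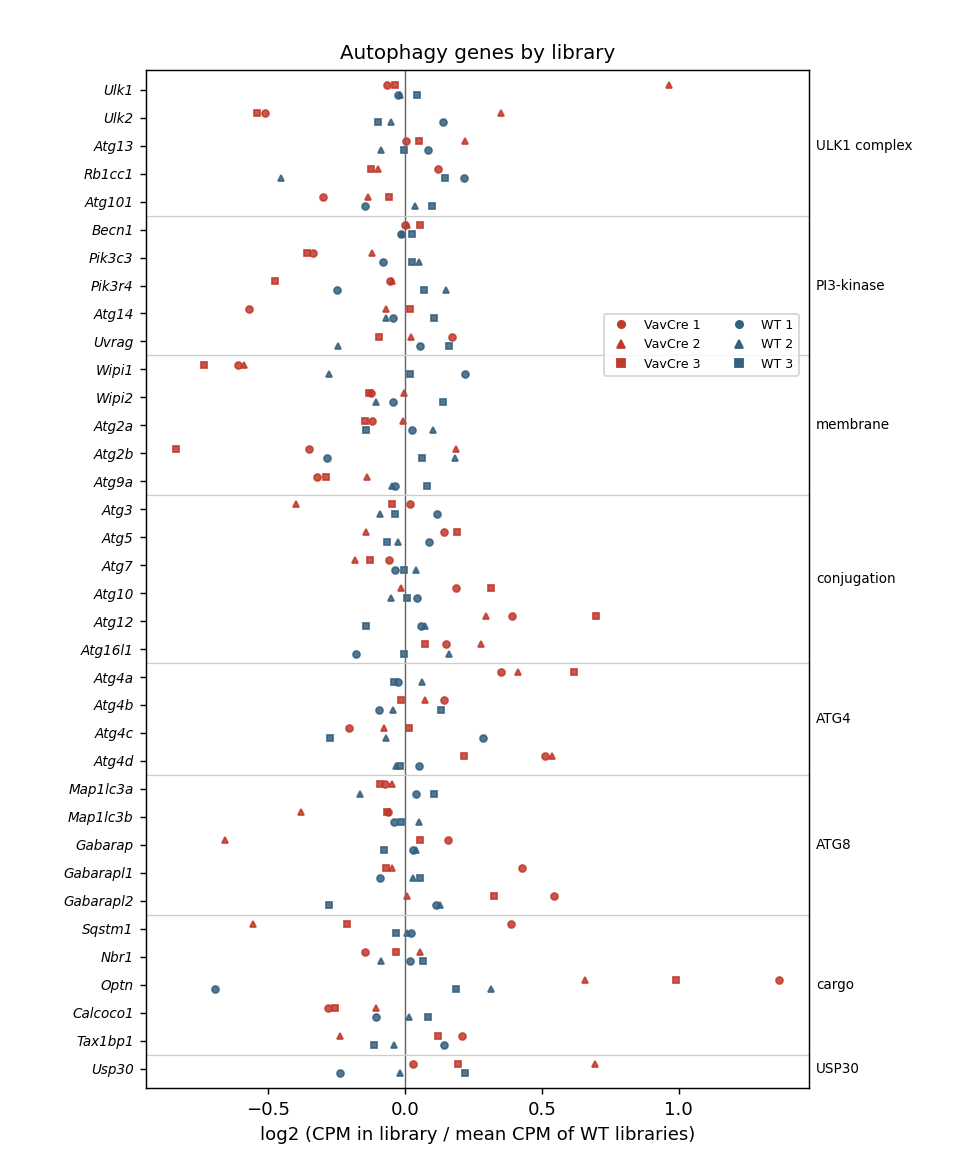
Log2 ratio of each library's CPM to the mean of the WT libraries (horizontal axis) for the 36 genes by role, with VavCre libraries above WT in each row and a symbol for each replicate number. Red triangles show VavCre replicate 2, which lies apart for Ulk1 at the right and for Gabarap and Sqstm1 at the left; Optn is the row where the groups lie farthest apart.

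Among the cargo receptors Optn had the largest difference. Optineurin binds ubiquitin and ATG8 proteins and is best known for the clearance of damaged mitochondria and of bacteria, and its gene lies on chromosome 2 from 5020642 to 5064051 (GRCm38). It had 24.5, 14.96 and 18.9 CPM in VavCre replicates 1 to 3, against 5.87, 11.8 and 10.8 CPM in WT replicates 1 to 3. The lowest VavCre library was above the highest WT library, with WT replicate 1 the lowest and VavCre replicate 1 the highest. Mean levels were 19.4 ± 4.79 CPM in VavCre and 9.49 ± 3.18 CPM in WT (mean ± SD, n = 3 per group), and the log2 fold change of 1.02 ± 0.27 was the largest of the 36, with a 95% interval of 0.40 to 1.63. It did not pass in edgeR's quasi-likelihood test (unadjusted p = 0.00469, adjusted p = 0.0872). It passed with DESeq2 (adjusted p = 0.0127), with no filter on low counts (0.0322) and with scaling by library size alone (0.0117), while limma-voom gave 0.101. Without WT replicate 1 the log2 fold change was 0.77 (adjusted p = 0.185), and over the libraries left out in turn it ran from 0.77 to 1.21, with adjusted p from 0.0549 to 0.245. The summed level of neutrophil markers was higher in VavCre as well (133 to 180.4 CPM in VavCre and 77.7 to 102 CPM in WT, with 6 of 11 at 0 in every library). Among them Csf3r was lower in VavCre (28.1 ± 9.44 CPM against 40.5 ± 7.84 CPM in WT) and was not called. Of the alveolar macrophage markers, 4 of 12 were called lower. The part of either set of markers in the difference of Optn was not tested.

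Optn had the largest difference of the 36, and the 250 bases before its start site are therefore shown, from RefSeq on GRCm38.p6, chr2:5064118-5064367, minus strand, 5′ to 3′. Capitals mark the GC box GGGCGG, the only match there to the 4 motifs searched (E-box, antioxidant, forkhead and GC box).
Optn: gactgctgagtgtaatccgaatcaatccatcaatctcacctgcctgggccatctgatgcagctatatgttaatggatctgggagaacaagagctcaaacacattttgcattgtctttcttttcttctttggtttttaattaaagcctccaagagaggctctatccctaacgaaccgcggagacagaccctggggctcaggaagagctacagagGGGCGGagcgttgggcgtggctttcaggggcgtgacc
The other 3 motifs have no match in these letters.

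Sqstm1, the gene of p62, the receptor that gathers ubiquitinated proteins and peroxisomes, was the most abundant receptor. It had 1512, 785 and 998 CPM in VavCre replicates 1 to 3, against 1173, 1162 and 1129.8 CPM in WT replicates 1 to 3. On the scaled totals the WT libraries lay close together, while VavCre replicate 1 was above and VavCre replicates 2 and 3 below all of them. On plain totals VavCre replicate 2 (18693 counts of 17814958) was only just below WT replicate 1 (14994 of 14226108). The log2 fold change was -0.072 ± 0.24 (adjusted p = 0.907 by edgeR), with a 95% interval of -0.62 to 0.48. Exons of Mrnip lie opposite 17.3% of the exon bases of Sqstm1. Per kilobase of exon, Sqstm1 made up 89.8% to 93.5% of the summed level of the 5 receptors in VavCre and 92.5% to 92.8% in WT, and Optn 1.35% to 1.54% in VavCre and 0.415% to 0.841% in WT.

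Nbr1, the receptor most tied to pexophagy, had 34.6, 39.8 and 37.5 CPM in VavCre replicates 1 to 3, against 38.8, 36.1 and 40.2 CPM in WT replicates 1 to 3. The ranges overlapped almost fully, and the 95% interval of the log2 fold change was -0.26 to 0.19, well inside 1.5-fold. Tax1bp1, a receptor for protein aggregates, measured 123 ± 19.2 CPM in VavCre and 119 ± 11.01 CPM in WT. Calcoco1, a receptor for endoplasmic reticulum and Golgi, measured 35.4 ± 2.39 CPM in VavCre and 41.0 ± 2.68 CPM in WT, at a log2 fold change of -0.21 ± 0.10 (adjusted p = 0.302 by edgeR). Usp30, which removes ubiquitin from mitochondria and peroxisomes and so opposes their removal, had 5.08, 8.07 and 5.71 CPM in VavCre, against 4.22, 4.92 and 5.81 CPM in WT. Only VavCre replicate 2 lay above the WT range, and the log2 fold change of 0.34 ± 0.23 was 0.13 without it.

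**Figure D3:**
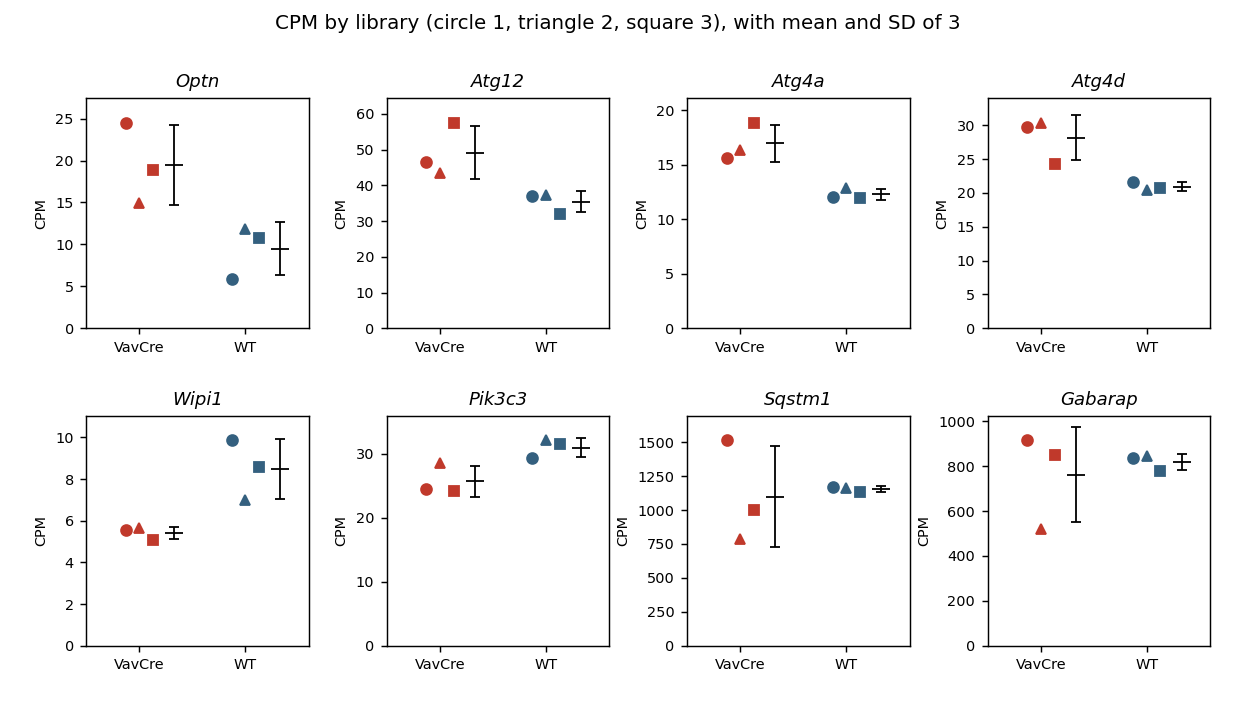
CPM on TMM-scaled totals (vertical axes, from 0) of 8 genes in the VavCre and WT libraries, with a symbol for each replicate and the mean ± SD of 3 beside it. Optn, Atg12, Atg4a and Atg4d lie higher in every VavCre library and Wipi1 and Pik3c3 lower, while Sqstm1 and Gabarap spread widely among the VavCre libraries.

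Levels of the genes can be set against each other per kilobase of exon. Gabarap (413 ± 115 CPM per kb in VavCre and 444 ± 19.7 in WT, mean ± SD, n = 3 each) and Sqstm1 (327 ± 111 in VavCre and 344 ± 6.68 in WT) were far above the rest, and the 2 overlapped in VavCre but not in WT. Map1lc3a came next with 75.5 ± 1.13 CPM per kb in VavCre and 79.2 ± 7.56 in WT, followed by Map1lc3b with 47.7 ± 5.81 CPM per kb in VavCre and 53.3 ± 1.74 in WT. Gabarapl1, Atg5 and Atg3 followed at group means between 38.7 and 47.5 CPM per kb, and these neighbours did not differ beyond their spread. At the low end were Atg2b (0.534 ± 0.188 in VavCre and 0.644 ± 0.104 in WT), Usp30, Ulk1 and Rb1cc1, with group means up to 1.14 CPM per kb.

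**Figure D4:**
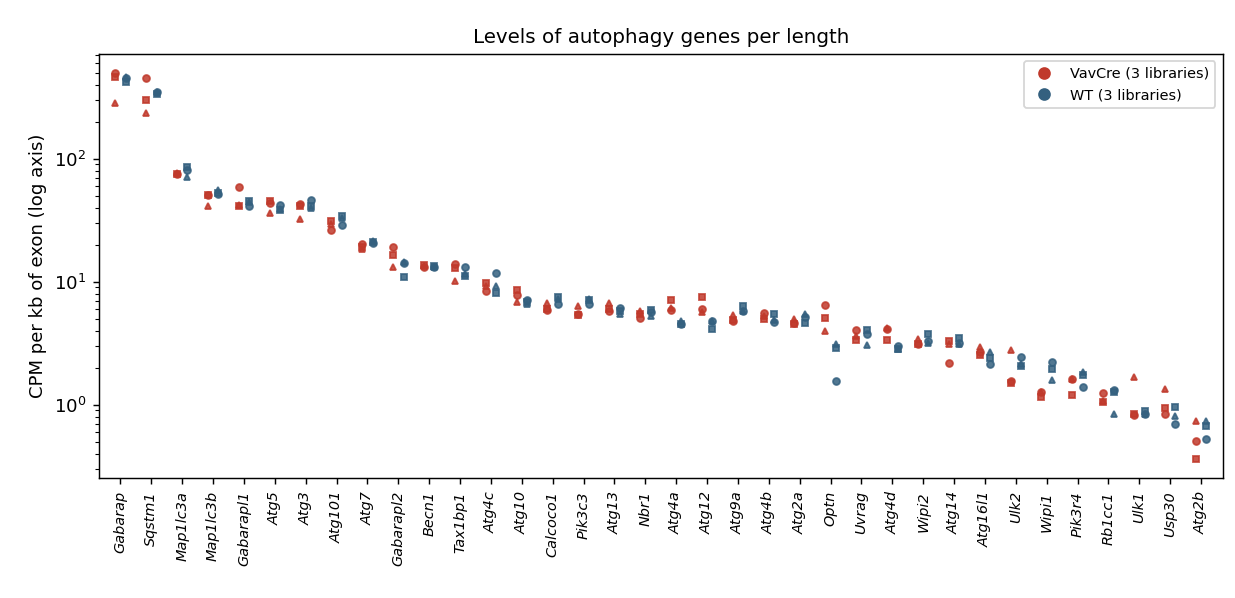
CPM per kilobase of exon (vertical axis, logarithmic) of the 36 genes in order of their mean over all libraries, with VavCre points left of WT points for each gene. Gabarap and Sqstm1 lead, and Ulk1, Usp30 and Atg2b are lowest, in both groups.

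Other genes of the pathway, in 6 further lists, were tested alongside: 0 of 83 tested genes were called by edgeR, where 3.25% of all genes were. An unadjusted p under 0.05 was found for 13 of the 83, where it was for 18.9% of all genes. DESeq2 called 4 (6.02% of all genes) and limma-voom 0 (2.94% of all genes). The median log2 fold change over the 83 was -0.017. Among 12 further initiation and membrane factors Rubcn, the Rubicon gene, which restrains autophagy and serves LC3-associated phagocytosis, had the smallest p, with 13.5, 14.9 and 13.2 CPM in VavCre, against 16.5, 17.8 and 19.2 CPM in WT. Among 14 genes of fusion with the lysosome it was Vps41, a subunit of the HOPS tether, at 62.9 ± 3.74 CPM in VavCre and 75.8 ± 2.35 CPM in WT. The groups of both genes did not overlap on the scaled totals but did on plain totals, and neither passed (adjusted p = 0.159 and 0.169 by edgeR).

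Of the 7 transcription factors of the pathway tested, 0 were called. Tfeb measured 45.6 ± 2.70 CPM in VavCre and 42.3 ± 4.52 CPM in WT and Tfe3 42.6 ± 5.17 CPM in VavCre and 44.8 ± 8.03 CPM in WT. Foxo3 had the smallest p of the 7 factors, with 6.10, 9.33 and 6.22 CPM in VavCre, against 4.54, 5.04 and 5.87 CPM in WT, and was not called (log2 fold change 0.49 ± 0.23, adjusted p = 0.284 by edgeR). Of 17 tested genes of mTORC1 and AMPK, which hold autophagy back and set it free, Deptor, an inhibitor of mTOR, had the smallest p, at 42.9 ± 2.74 CPM in VavCre and 52.1 ± 4.92 CPM in WT (adjusted p = 0.206 by edgeR). Of 19 tested genes of peroxisome ubiquitination and pexophagy 0 were called. Usp9x, a deubiquitinase that can act on PEX5, had the smallest p of these, at 17.6 ± 1.90 CPM in VavCre and 22.1 ± 2.50 CPM in WT (adjusted p = 0.236 by edgeR). Pex2, the ubiquitin ligase subunit whose product is linked to pexophagy, had 44.8, 48.3 and 55.2 CPM in VavCre, against 49.5, 50.7 and 47.6 CPM in WT, and a 95% interval of -0.24 to 0.25 on the log2 scale.

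Receptors for other cargo held the largest difference of these lists. Stbd1, a receptor for glycogen, had 8.13, 7.27 and 6.61 CPM in VavCre replicates 1 to 3, against 3.05, 4.52 and 2.09 CPM in WT replicates 1 to 3. Every VavCre library was above every WT library, at a log2 fold change of 1.17 ± 0.28 with a 95% interval of 0.54 to 1.80. It did not pass (adjusted p = 0.0612 by edgeR), but passed without WT replicate 2 (1.51, adjusted p = 0.042), and with DESeq2 (0.00458), with no filter on low counts (0.0275) and with library size alone (0.0146). Stbd1 did not pass with limma-voom, median-ratio or upper-quartile scaling, a mean of at least 5 CPM or the replicate block. Nor did it pass with any other single library left out. Of the 14 tested genes in that list 10 had a log2 fold change below 0 and 4 above.

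**Figure D5:**
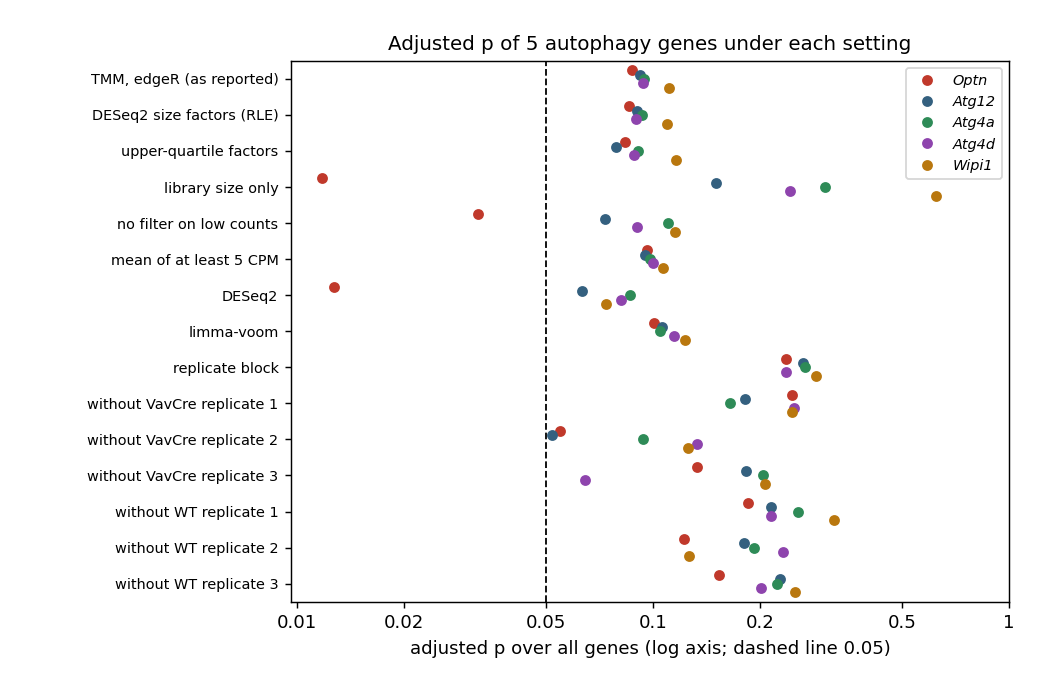
Adjusted p over all genes (horizontal axis, logarithmic) of Optn, Atg12, Atg4a, Atg4d and Wipi1 under each way of processing (rows), with 0.05 dashed. Only Optn crosses the line, in 3 rows: DESeq2 at 0.0127, no filter at 0.0322 and library size alone at 0.0117.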

How the data were processed

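Gene counts, as the authors deposited them, were read from 1 table of 25664 genes by symbol with 1 column per library. Each library began, per the labels' protocols, with RNA of 50000 sorted macrophages, was built with the SMART-Seq stranded kit, and was read from 1 end over 100 bp. STAR, featureCounts, R 4.3.2 and DESeq2 1.40.1, with the builds GRCm38.p5 and mm10, are named per the submitters' processing notes. Not given in the sources used here is how strand was handled or which annotation served, so reads of overlapping or antisense genes may not be told apart. Without molecular identifiers, counts are reads and not molecules.

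Genes were filtered with filterByExpr (minimum count 10, minimum total 15), scaled with TMM factors and tested with edgeR 4.0.16 (glmQLFit, glmQLFTest; R 4.3.3) in a two-sided test, adjusted over 11011 genes after Benjamini and Hochberg, at a threshold of 0.05. CPM are on TMM-scaled library sizes, and marker sums are on unscaled totals. A standard error is the log2 fold change over the root of its F statistic. DESeq2 1.42.0 and limma-voom (limma 3.58.1) were alternatives, as were median-ratio, upper-quartile and library-size scaling, no filter, a mean of at least 5 CPM, a replicate block and leaving out each library. Exon lengths, overlaps and the share of 100-base words of the longest transcript that occur in other genes come from GENCODE M21 on GRCm38, and promoter sequences from RefSeq on GRCm38.p6.

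Values in every library are given for members with the smallest p or highest level per length in each role, and for non-overlapping members past 0.5 in log2 fold change; other members by mean, except those named with library values after their values were seen (Ulk1, Ulk2, Atg7, Atg4a, Map1lc3b, Nbr1). Other pathway genes are named by smallest p, and Tfeb, Tfe3 and Pex2 were added after their values were seen. The members and lists were chosen with earlier results of these data known. Steps were tested on simulated data.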

Additional observations from a re-analysis of the deposited data

How the results depend on the processing

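None of the 36 genes was called by the main edgeR fit. Over 14 alternatives the count of members called lower stayed at 0, and the count called higher was 1 (Optn) with DESeq2, with no filter on low counts and with library size alone, and 0 otherwise. Calls over all genes were 358 (192 higher and 166 lower), against 421 with library size alone (289 higher and 132 lower), 741 with DESeq2, 83 with the replicate block and 76 to 523 with 1 library left out (76 without WT replicate 1, 117 without VavCre replicate 1, 136 without WT replicate 3, 181 without WT replicate 2, 219 without VavCre replicate 3, 523 without VavCre replicate 2). Same-numbered libraries did not deviate together (correlations -0.214, -0.0618 and -0.411). Deviations from a mean of 3 libraries must sum to 0 in each group, so these correlations cannot exclude that the numbers pair the libraries. The sources used here do not say whether they do. With the block 0 members were called. Chosen after seeing the data, the same alternatives for the 83 other pathway genes gave 1 call with library size alone, 3 with no filter, 4 with DESeq2, and 0 to 1 with 1 library left out (Huwe1 without VavCre replicate 2, Stbd1 without WT replicate 2).

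Library size alone moved the median of all genes by 0.17 and the medians to 0.083 for initiation, 0.23 for conjugation, 0.14 for cargo receptors. It turned the sign of Ulk2 (0.083), Rb1cc1 (0.13), Atg101 (0.0073), Pik3r4 (0.0061), Wipi2 (0.090), Atg2a (0.096), Atg3 (0.011), Atg7 (0.040), Atg4c (0.097), Map1lc3a (0.10), Gabarap (0.010), Sqstm1 (0.052), Nbr1 (0.14). Relative to the median of all genes, 36 of 36 kept their direction. The 5 members lower without overlap on scaled totals (Wipi1, Pik3c3, Atg9a, Atg7 and Map1lc3b) overlapped between groups on plain totals. The 4 higher without overlap (Optn, Atg12, Atg4a and Atg4d) stayed apart there too. Limma-voom turned Rb1cc1 (0.0049). With 1 library left out the medians ran from -0.16 to -0.054 for initiation, 0.030 to 0.16 for conjugation, -0.069 to 0.13 for cargo receptors. The sign changed for 12 members not called in any of these fits: Atg4c (-0.18 to 0.081), Gabarap (-0.26 to 0.12), Gabarapl1 (-0.059 to 0.21), Map1lc3a (-0.15 to 0.0076), Nbr1 (-0.081 to 0.017), Rb1cc1 (-0.22 to 0.091), Sqstm1 (-0.37 to 0.13), Tax1bp1 (-0.048 to 0.18), Ulk1 (-0.039 to 0.56), Ulk2 (-0.51 to 0.0038), Uvrag (-0.074 to 0.15), Wipi2 (-0.14 to 0.010). The cause was not tested. With 3 libraries a group, the 95% interval reached past 1.5-fold for 12 of the 36 genes, which leaves room for differences of that size.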

Other observations

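Wdfy3, Atl3 and Ccpg1, receptors for other cargo, were named after their values were seen. They are among the 4 of the 83 other pathway genes that DESeq2 called, where it called 6.02% of all genes. They were chosen with these results known, so their calls are no separate support. The main edgeR fit called none of them. With no filter on low counts edgeR called 3 of the 83, Wdfy3, Atl3 and Stbd1, where 3.19% of all genes were called. Wdfy3, the ALFY scaffold for protein aggregates, had 54.0, 59.2 and 66.6 CPM in VavCre replicates 1 to 3, against 100.0, 95.6 and 73.7 CPM in WT replicates 1 to 3 (log2 fold change -0.58 ± 0.14, adjusted p = 0.0654 by edgeR). Atl3 and Ccpg1, receptors for the endoplasmic reticulum, measured 20.2 ± 0.814 CPM in VavCre and 30.2 ± 5.91 CPM in WT (adjusted p = 0.0747 by edgeR), and 131 ± 6.66 CPM in VavCre and 169.6 ± 4.57 CPM in WT (0.0918). On the scaled totals Wdfy3, Atl3 and Ccpg1 were lower in each VavCre library than in any WT library. The groups did not overlap for 5 of the 14 tested receptors for other cargo, in either direction, and for 26.1% of all genes. On plain totals the groups overlapped for each of Wdfy3, Atl3 and Ccpg1.

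The ratio of Optn to Sqstm1, each per kilobase of exon, was likewise set up after the values were seen. It was 0.0145, 0.0170 and 0.0169 in VavCre replicates 1 to 3, against 0.00447, 0.00908 and 0.00855 in WT replicates 1 to 3. It does not depend on how the libraries were scaled, and the groups did not overlap. The groups of Optn were already apart on scaled and on plain totals, so the ratio is no separate support for its difference. The ratio of Gabarap to Map1lc3b per kilobase was 9.70, 6.88 and 9.06 in VavCre, against 8.73, 8.27 and 7.99 in WT, and there the groups overlapped.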
